A study of Homo sapiens with 18 samples.

Results

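Integrins are cell surface receptors made of 1 alpha and 1 beta subunit, and the pair decides what a cell can hold on to. ITGB1 is the common beta subunit: with ITGA1, ITGA2, ITGA10 or ITGA11 it forms the collagen receptors, and with ITGA5 the main fibronectin receptor. ITGAV pairs with several beta subunits, among them ITGB3, to bind vitronectin and other ligands that carry the RGD motif, whereas ITGAM and ITGAX pair with ITGB2 and are known from myeloid cells. The 10 genes described here, ITGA1, ITGA2, ITGA5, ITGA10, ITGA11, ITGAV, ITGAX, ITGAM, ITGB1 and ITGB3, were taken as a named list of collagen-binding, fibronectin-binding and leukocyte subunits, and are 10 of the 35579 genes with a matched transcript. All 10 passed the filter on low counts, among 16786 genes tested, and 13 of the other 16 human integrin subunits passed it as well.

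The 18 polyA RNA-seq libraries came from U2OS, a human osteosarcoma line, in 6 groups of 3 replicates. Control cells carried mCherry alone. Other cells carried mCherry-tagged EWS-FLI1, the fusion transcription factor of Ewing sarcoma, or 1 of 2 altered forms named EWS-FLI1mut and EWS(YS37)-FLI1 (37YS in the series' design text), so that every group carried mCherry. EWS-FLI1 cells also received LY2835219, which is abemaciclib and blocks the cell cycle kinases CDK4 and CDK6, at 7.5 µM. Exposure lasted 6 h or 24 h by the titles and the design. The treatment protocol names other times. The labels do not say what EWS-FLI1mut changes, whether a line is a clone or a pool, or whether untreated cells received vehicle, and they name 2 library kits without tying either to a library. Each construct is thus represented by 1 line as far as the labels tell, replicates are called biological without further detail, and p-values measure the spread between these libraries.

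Library totals ran from 16261034 to 20270637 estimated counts. Mitochondrial genes took 4.25 to 6.59% of counts. Replicates of each group differed by more than sampling noise in all 18 pairs, with a chi-square per gene of 3.86 to 10.4. The 8 osteoblast markers had a summed level of 2396 to 6362 CPM (counts scaled to library size) over the libraries, a sum that includes the matrix genes COL1A1, COL1A2 and SPARC. Of the 8, SP7, BGLAP and IBSP did not pass the filter on low counts, and IBSP had no count in 4 of the groups. CPM values here are scaled by TMM, a normalization that assumes most genes do not change. With no scaling factors the median gene would move by -0.27 (log2) at 6 h and by 0.31 between 6 h and 24 h, so all changes under LY2835219 are relative to TMM.

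Compared per unit of transcript length, as the deposited TPM values, the members differed widely in level. In mCherry cells ITGB1 stood at 714 ± 25.2 TPM (SD, n = 3), ITGAV at 48.8 ± 7.32, ITGA5 at 36.8 ± 3.22, ITGB3 at 9.78 ± 1.70 and ITGA2 at 5.22 ± 0.547. Below them came ITGA11 at 2.18 ± 0.627 TPM, ITGA1 at 2.14 ± 0.860, ITGAX at 1.59 ± 0.374, ITGA10 at 0.428 ± 0.0496 and ITGAM at 0.0823 ± 0.0336. ITGA11 and ITGA1, and ITGA1 and ITGAX, were neighbours in this order whose libraries overlapped. ITGB1 was the highest member in all 6 groups. The lower part of the order changed between groups: ITGA2 passed ITGB3 in EWS-FLI1mut, EWS(YS37)-FLI1 and both treated groups, with overlapping libraries in EWS-FLI1mut.

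On the genome (hg38) several members are neighbours. ITGA1 lies on chromosome 5 from 52787896 to 52959210 and ITGA2 follows 30115 bases later, from 52989326 to 53094779, on the same strand. ITGAM (chromosome 16, 31259967 to 31332892) and ITGAX (31355134 to 31382997) are separated by 22241 bases, with the related subunit ITGAD 10314 bases further on. ITGA11 spans chromosome 15 from 68296533 to 68432162, ITGB3 chromosome 17 from 47253846 to 47311816, ITGB1 chromosome 10 from 32900319 to 33005792, ITGAV chromosome 2 from 186590065 to 186680901, ITGA5 chromosome 12 from 54395261 to 54419460 and ITGA10 chromosome 1 from 145891208 to 145910189. Of the neighbours, ITGA2 was called in 7 of the 9 comparisons below and ITGA1 in 2, and ITGAX was called in 6 and ITGAM in 3.

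FLI1 belongs to the ETS family, whose members bind a GGAA core, and EWS-FLI1 is known for using runs of GGAA repeats. The bases before the transcription start are therefore shown for ITGA2, which had the largest rise after 6 h of LY2835219, for ITGA11, which had the largest falls, and for ITGAM, which was higher in EWS(YS37)-FLI1 cells. The sequences are from RefSeq (GRCh38.p14) and run 5′ to 3′ on the gene's strand. These 3 end before the annotated gene, with GGAA or its reverse complement TTCC in capitals.
ITGA2 (chr5:52989102-52989325, plus strand): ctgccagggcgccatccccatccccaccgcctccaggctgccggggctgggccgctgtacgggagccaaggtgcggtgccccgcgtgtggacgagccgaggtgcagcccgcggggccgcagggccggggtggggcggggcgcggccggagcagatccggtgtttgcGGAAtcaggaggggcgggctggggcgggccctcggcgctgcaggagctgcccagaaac
ITGA11 (chr15:68432164-68432413, minus strand): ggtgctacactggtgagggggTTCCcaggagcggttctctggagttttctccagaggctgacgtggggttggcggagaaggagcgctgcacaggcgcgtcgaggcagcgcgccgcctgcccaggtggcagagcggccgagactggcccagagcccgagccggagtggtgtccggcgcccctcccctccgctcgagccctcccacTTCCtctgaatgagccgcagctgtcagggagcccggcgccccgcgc
ITGAM (chr16:31259725-31259966, plus strand): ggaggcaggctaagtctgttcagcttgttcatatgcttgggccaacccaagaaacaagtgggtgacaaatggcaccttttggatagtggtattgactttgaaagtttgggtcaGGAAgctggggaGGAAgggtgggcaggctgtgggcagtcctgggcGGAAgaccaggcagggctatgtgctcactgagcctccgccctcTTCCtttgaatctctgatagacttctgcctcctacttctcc
Over the 250 bases before the start, 8 of the 10 members had an entry, and in all 8 a GGAA core was found on either strand, as in 92.7% of 35116 windows of all genes. A tandem core, GGAAGGAA, was found in 1 of the 8 and in 3.06% of all windows. That member was ITGA10. Its stretch lies before the RefSeq start but inside the gene as GENCODE annotates it, and is shown with the tandem in capitals.
ITGA10 (chr1:145910122-145910149, minus strand): actcctcccaTTCCTTCCaactttattt
ITGA10 was called in none of the 9 comparisons. The extended core CCGGAA, which contains GGAA, was found in 1 of 8 members, ITGB1 (14.5% of all windows), the motif GGAATG of TEAD factors, which also contains GGAA, in 3, namely ITGA5, ITGA10 and ITGB1 (11.9%), the GC box GGGCGG in 4 (42.6%), and the AP-1 motif TGANTCA in 0 (6.57%). These are matches of letters and not measured binding sites. ITGAX and ITGB3 had no entry.

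**Figure D1:**
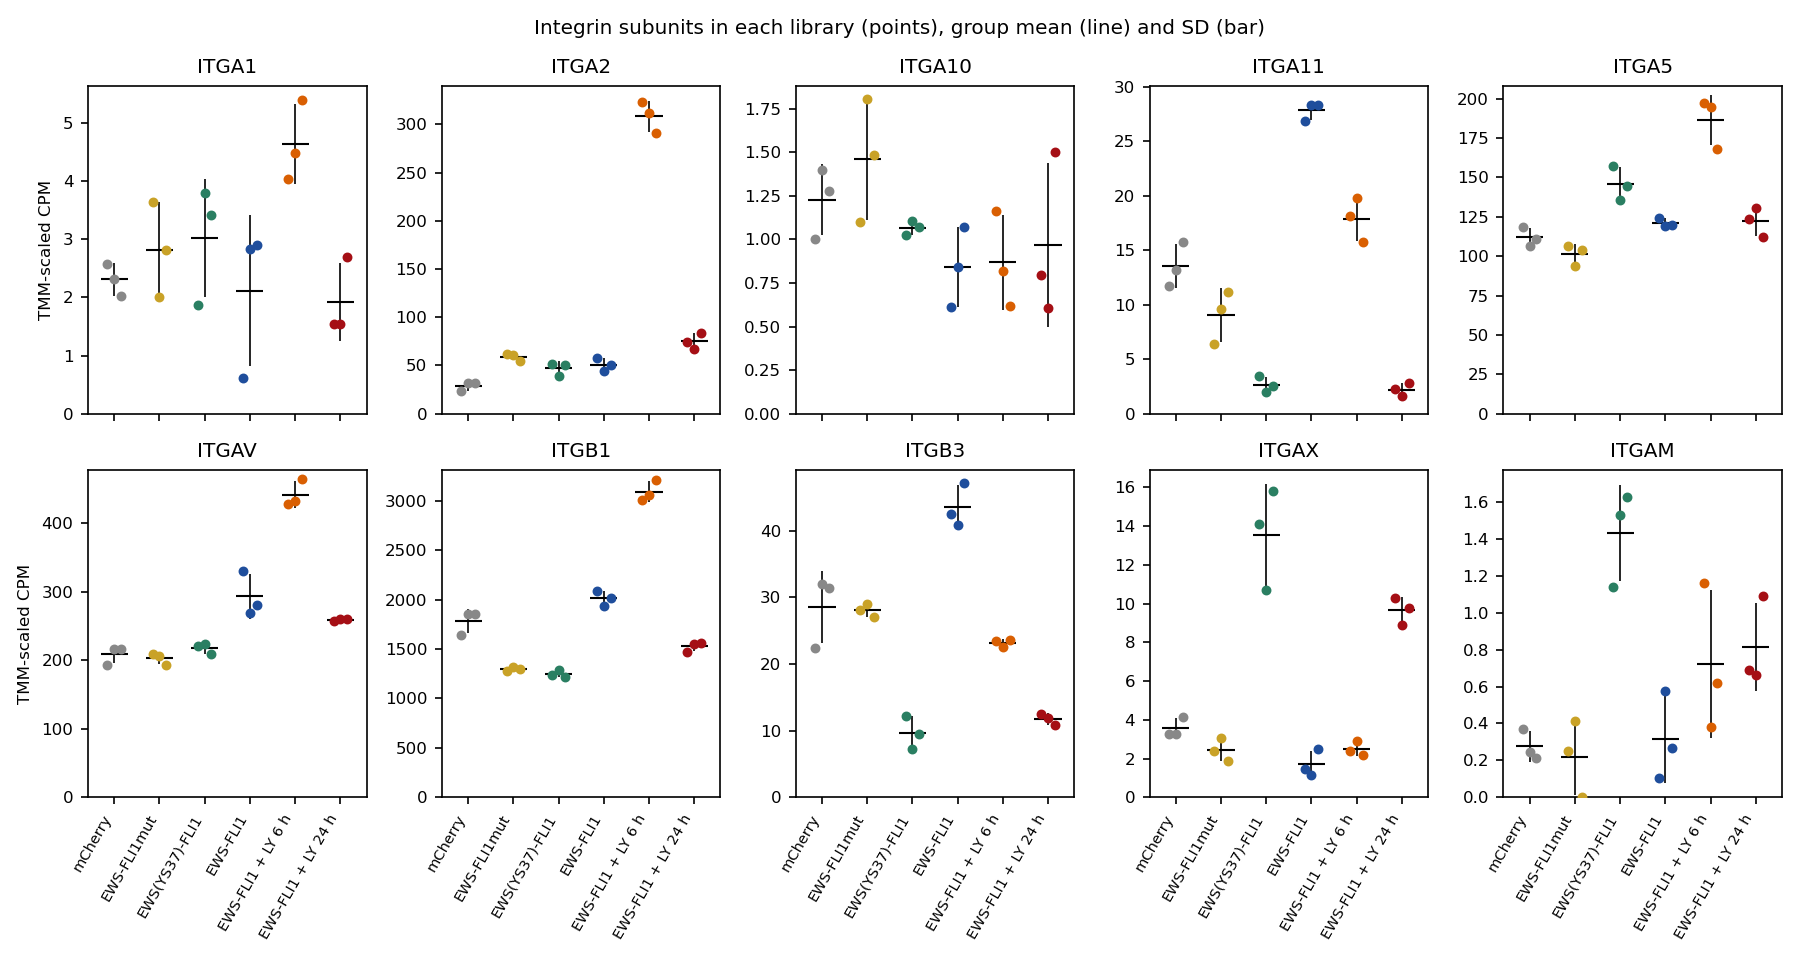
TMM-scaled CPM (vertical axes, linear from 0) of the 10 integrin subunits in each of the 18 libraries by group, with the group mean (line) and SD (bar). ITGA2 was highest at 6 h of LY2835219 (308 CPM), ITGA11 and ITGB3 were lowest in EWS(YS37)-FLI1 and at 24 h, and ITGAX was highest in those same groups (13.5 and 9.65 CPM).

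EWS-FLI1 cells were compared with mCherry cells to find what the fusion changed. Of the 10 members, 5 rose and 1 fell, where 21.1% of all genes tested were called, 11.1% higher and 9.95% lower. Libraries did not overlap for 7 members, as for 35.3% of all genes. The rises were in ITGB1, ITGB3 and 3 alpha subunits, and the fall was in ITGAX. The median log2 fold change of the members was 0.18, beside -0.02 for all genes.

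Among the collagen receptors, ITGA11, the fibrillar collagen receptor of mesenchymal cells, stood at 11.7, 13.2 and 15.7 CPM in mCherry cells and at 26.8, 28.3 and 28.3 CPM with EWS-FLI1. No EWS-FLI1 library came near the mCherry range, and the rise was 2.06-fold (log2 1.04 ± 0.18 SE, adjusted p = 0.000139, edgeR quasi-likelihood test with Benjamini-Hochberg adjustment over all genes). ITGA2, which binds type I collagen, went from 23.2, 31.3 and 31.6 CPM to 57.6, 44.6 and 50.3 CPM, a 1.77-fold rise (log2 0.83 ± 0.12, adjusted p = 2.37e-05). ITGA1 (log2 -0.13 ± 0.39) and ITGA10 (-0.54 ± 0.40) were not called, and their libraries overlapped.

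Of the fibronectin and vitronectin receptors, ITGB3 stood at 22.4, 32.0 and 31.4 CPM in mCherry cells and at 42.6, 40.8 and 47.2 CPM with EWS-FLI1 (log2 0.61 ± 0.13, adjusted p = 0.00129). Its partner ITGAV rose from 209 ± 13.1 to 294 ± 33.0 CPM (log2 0.49 ± 0.07, adjusted p = 8.9e-06). The libraries of the 2 groups did not overlap for either gene. ITGB1 differed by 0.17 ± 0.05 on the log2 scale (adjusted p = 0.0155), a call lost without EWS-FLI1 replicate 1 (adjusted p = 0.0738) or mCherry replicate 1 (0.104). ITGA5 was not called (0.12 ± 0.07).

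The leukocyte subunits were among the lowest members. ITGAX had 62, 54 and 78 counts in the mCherry libraries and 29, 22 and 46 with EWS-FLI1, and was 2.10-fold lower (log2 -1.07 ± 0.25, adjusted p = 0.00322). On log2(TPM + 1), tested with limma, the difference was -0.46 and was not called (adjusted p = 0.0762). ITGAM had 7, 4 and 4 counts against 2, 11 and 5, and was not called (log2 0.19 ± 0.74). At these counts only a large difference could be detected.

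EWS-FLI1mut cells differed from mCherry cells in 2 members, 1 in each direction, where 7.15% of all genes were called, 3.53% higher and 3.62% lower. For 5 members the libraries did not overlap (25.9% of all genes). ITGA2 rose from 28.7 ± 4.79 to 59.2 ± 3.99 CPM (log2 1.05 ± 0.12, adjusted p = 5.57e-06). Its 3 libraries, between 54.6 and 62 CPM, lay above all mCherry libraries. ITGB1 fell from 1646, 1855 and 1858 CPM to 1279, 1315 and 1302 CPM (log2 -0.46 ± 0.05, adjusted p = 3.14e-06). ITGA11 stood at 9.03 ± 2.45 CPM beside 13.5 ± 2.05 (log2 -0.58 ± 0.18, adjusted p = 0.0548) and was not called. Without EWS-FLI1mut replicate 3 the adjusted p was 0.0287, and without mCherry replicate 1 it was 0.0452. With length offsets, however, the ITGA11 log2 difference was 0.06. Its TPM libraries overlapped, at 2.49 ± 1.51 in EWS-FLI1mut and 2.18 ± 0.627 in mCherry cells. The other 7 members were not called, and for ITGAM 1 EWS-FLI1mut library had 0 counts, which allows up to 3 counts, or 0.154 CPM.

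EWS(YS37)-FLI1 cells differed from mCherry cells in 7 members. Of these 4 rose and 3 fell, where 21.7% of all genes were called, 11.5% higher and 10.2% lower. The libraries of 7 members did not overlap (35.7% of all genes). The leukocyte subunits ITGAX and ITGAM rose together with ITGA2 and ITGA5, and ITGA11, ITGB3 and ITGB1 fell. The median over the members was 0.22 (log2), beside a value near 0 for all genes.

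ITGAX stood at 14.1, 10.7 and 15.8 CPM in EWS(YS37)-FLI1 cells and at 3.27, 3.29 and 4.16 CPM in mCherry cells. Every EWS(YS37)-FLI1 library was above every library of the other untreated groups, and the rise was 3.78-fold (log2 1.92 ± 0.22, adjusted p = 7.26e-07). ITGAM had 20, 29 and 32 counts, beside 7, 4 and 4 in mCherry cells (log2 2.35 ± 0.66, adjusted p = 0.012). The ITGAM call was lost without mCherry replicate 2 (adjusted p = 0.0528) or replicate 3 (0.0584).

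The falls were in receptors for collagen and RGD ligands. ITGA11 was down to 3.41, 2.00 and 2.49 CPM, 5.15-fold below mCherry cells (log2 -2.36 ± 0.21, adjusted p = 1.65e-08). The full-length coding transcript ITGA11-201 stood at 0.181 ± 0.0657 TPM beside 1.68 ± 0.251 in mCherry cells, while the short retained-intron transcript ITGA11-207 held 47.2 ± 40.9% of the gene's TPM in EWS(YS37)-FLI1 cells. With offsets for that change in length the gene's log2 difference was -0.75 and was not called (adjusted p = 0.375). ITGB3, which is counted almost wholly on 1 coding transcript, was 12.2, 7.21 and 9.52 CPM and 2.97-fold lower (log2 -1.57 ± 0.14, adjusted p = 1.92e-08). ITGB1 fell by 0.52 ± 0.05 on the log2 scale (adjusted p = 5.81e-08), to 1250 ± 35.7 CPM. ITGA2 rose 1.65-fold (adjusted p = 0.000101) and ITGA5 1.30-fold (adjusted p = 0.000392), and ITGAV did not pass the test (log2 0.06 ± 0.07).

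The constructs were also compared directly. The comparisons with mCherry cells share the mCherry libraries, and those below share libraries with them and with each other. EWS-FLI1 cells exceeded EWS-FLI1mut cells in 5 members and were lower in 0, where 16.3% of all genes were called, 8.78% higher and 7.51% lower. For 6 members the libraries did not overlap, beside 34.3% of all genes. The 5 were ITGA11 (3.08-fold, log2 1.62 ± 0.18, adjusted p = 8.59e-07), ITGB1 and ITGB3 (both 1.55-fold, log2 0.63), ITGAV (1.44-fold, log2 0.53 ± 0.07) and ITGA5 (1.20-fold, log2 0.26 ± 0.07). The ITGA5 call (adjusted p = 0.0152) was lost without EWS-FLI1 replicate 1 (0.059) or EWS-FLI1mut replicate 2 (0.0974), and with limma on log2(TPM + 1) (0.103). ITGA2, higher than in mCherry cells in both lines, was not called between them (log2 -0.22 ± 0.11, adjusted p = 0.202). ITGAX was not called (-0.52 ± 0.26) except without EWS-FLI1 replicate 3 (adjusted p = 0.033).

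Between EWS(YS37)-FLI1 and EWS-FLI1 cells 7 members differed, 3 higher and 4 lower in EWS(YS37)-FLI1, where 31.1% of all genes were called, 16.3% higher and 14.8% lower. In 7 members the libraries did not overlap (42.9% of all genes). ITGAX was 7.94-fold higher (log2 2.99 ± 0.24, adjusted p = 1.49e-09) and ITGA11 was 10.6-fold lower (log2 -3.40 ± 0.21, adjusted p = 2.07e-11). With length offsets the ITGA11 log2 value was -2.45 and still called. ITGB3 was 4.52-fold lower (log2 -2.18 ± 0.14), ITGB1 1.61-fold lower (-0.69 ± 0.05) and ITGAV 1.35-fold lower (-0.43 ± 0.07). Libraries did not overlap for any of these 5. ITGAM was higher (log2 2.16 ± 0.64, adjusted p = 0.0125), a call lost without EWS-FLI1 replicate 1 (0.0775) or replicate 3 (0.0529). The ITGAM call was also lost with length offsets (0.121) and with limma on log2(TPM + 1) (0.0779). ITGA5 was 1.20-fold higher (adjusted p = 0.00617), a call lost without EWS(YS37)-FLI1 replicate 1 (0.0652). The ITGA5 call was also lost with length offsets (0.089) and with limma on log2(TPM + 1) (0.304). ITGA2 did not pass the test (log2 -0.11 ± 0.11).

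Against EWS-FLI1mut cells, EWS(YS37)-FLI1 cells were higher in 3 members and lower in 3, where 27.2% of all genes were called, 14.5% higher and 12.7% lower. There were 6 members without overlap (41.7% of all genes). ITGAX was 5.53-fold higher (log2 2.47 ± 0.23, adjusted p = 2.24e-08), ITGAM 6.33-fold (2.66 ± 0.67, adjusted p = 0.00438) and ITGA5 1.44-fold (0.53 ± 0.07, adjusted p = 6.78e-06). ITGA11 was 3.43-fold lower (log2 -1.78 ± 0.21) and ITGB3 2.91-fold lower (-1.54 ± 0.14). With length offsets ITGA11 (log2 -0.81, adjusted p = 0.313) and ITGAM (1.62, adjusted p = 0.466) were not called. ITGA2 was lower by a log2 of -0.33 ± 0.11 (adjusted p = 0.0351), and the adjusted p was 0.206 when EWS(YS37)-FLI1 replicate 2 was left out, 0.110 for EWS-FLI1mut replicate 1 and 0.1 for its replicate 2. The ITGA2 call was also lost with length offsets (0.0951) and with DESeq2 (0.0638). ITGB1, low in both lines, was not called (-0.06 ± 0.05) from counts, but was on log2(TPM + 1) with limma (-0.21, adjusted p = 0.00881).

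**Figure D2:**
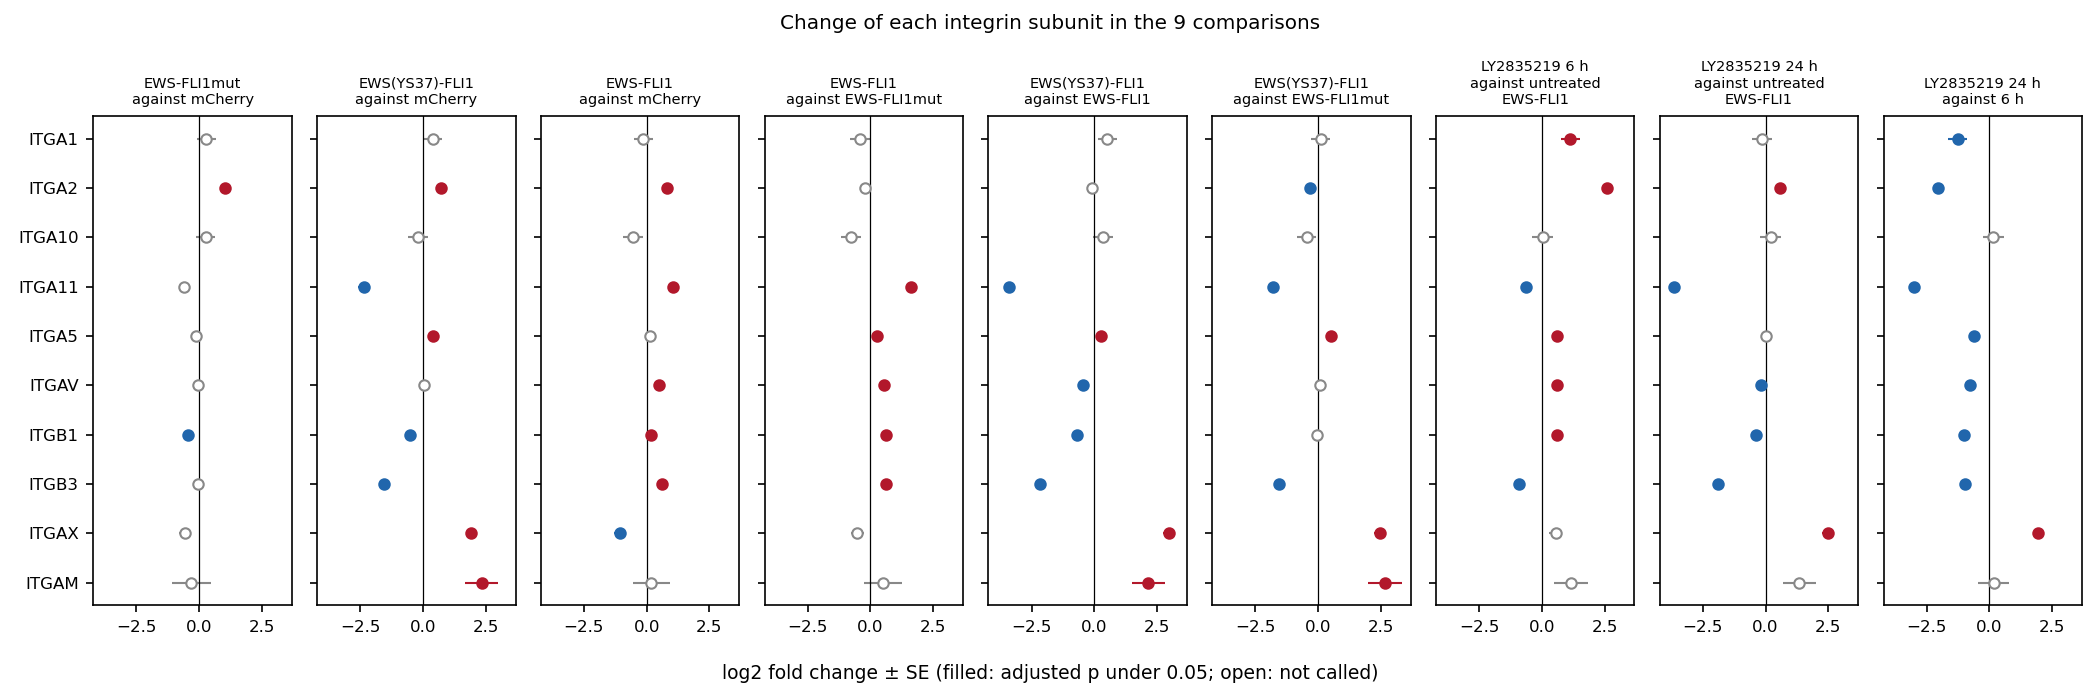
Log2 fold change with its standard error (horizontal axes) for each integrin subunit (rows) in the 9 comparisons (panels), filled where the adjusted p was under 0.05 and open where it was not. ITGA11 and ITGB3 lay on the opposite side of 0 from ITGAX in EWS(YS37)-FLI1 cells and at 24 h of LY2835219, and ITGA2 at 6 h was the largest rise under treatment (log2 2.60).

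LY2835219 was given to EWS-FLI1 cells. At 6 h 5 members rose and 2 fell, where 64.9% of all genes were called, 31.6% higher and 33.3% lower, so that 7 called members are near the background share. Without overlap were 7 members and 68.3% of all genes. The members that rose were ITGB1 and 4 alpha subunits that can pair with it, ITGA1, ITGA2, ITGA5 and ITGAV, while its partner ITGA11 fell. The median over the members was 0.61 (log2), beside -0.02 for all genes.

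ITGA2 had the largest log2 change of the members at 6 h. It stood at 57.6, 44.6 and 50.3 CPM in untreated cells, at 323, 312 and 291 CPM at 6 h, and at 74.4, 67.0 and 84.1 CPM at 24 h. The 6 h libraries were far above all others, with a 6.07-fold rise (log2 2.60 ± 0.11, adjusted p = 2.54e-15). The coding transcript ITGA2-201 held 91.3 ± 3.18% of the gene's TPM before treatment and 88.1 ± 0.709% at 6 h. ITGB1 rose from 2012 ± 75 to 3093 ± 109 CPM, ITGAV from 294 ± 33.0 to 442 ± 19.9 CPM and ITGA5 from 121 ± 2.70 to 187 ± 16.1 CPM. These 3 rises were alike in size, at 1.54-fold (adjusted p = 1.31e-10), 1.51-fold (2.71e-08) and 1.54-fold (5.77e-08).

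ITGA1 behaved differently by the measure used. Its counts were 12, 54 and 54 before treatment and 66, 71 and 87 at 6 h (log2 1.13 ± 0.38, adjusted p = 0.0119). Its TPM was 0.826, 2.37 and 1.22 before and 0.780, 0.590 and 1.41 at 6 h, with overlapping libraries. The transcript ITGA1-206, 601 bases long, held 63.2 ± 28.2% of the gene's TPM before treatment, from a mean of 3.66 counts, and 14 ± 24.3% at 6 h. With length offsets the log2 difference was -0.41 (adjusted p = 0.496), and the call was also lost without EWS-FLI1 replicate 1 (0.69, adjusted p = 0.0673).

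ITGA11 and ITGB3 had already fallen at 6 h. ITGB3 went from 43.5 ± 3.29 to 23.4, 22.6 and 23.6 CPM (log2 -0.91 ± 0.13, adjusted p = 1.61e-06). ITGA11 went from 27.8 ± 0.865 to 18.2, 19.8 and 15.7 CPM (log2 -0.64 ± 0.17, adjusted p = 0.00254), a call lost with length offsets (-0.94, adjusted p = 0.0739). ITGAX (0.55 ± 0.26, adjusted p = 0.0709) was called without EWS-FLI1 replicate 3 (adjusted p = 0.00671), and ITGAM (1.18 ± 0.68, adjusted p = 0.131) without EWS-FLI1 replicate 2 (0.0494).

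At 24 h 2 members rose and 4 fell against untreated cells, where 48% of all genes were called, 23.3% higher and 24.6% lower. Without overlap were 7 members and 54.7% of all genes. ITGA11 had dropped to 2.23, 1.60 and 2.80 CPM, 12.5-fold below untreated cells (log2 -3.65 ± 0.21, adjusted p = 1.29e-12). This was the largest change of any member in any of the 9 comparisons by the size of its log2 value. The coding transcript ITGA11-201 stood at 0.168 ± 0.0306 TPM, beside 3.45 ± 0.134 in untreated cells, and the fall was as large with length offsets (log2 -4.07). ITGB3 stood at 12.5, 11.9 and 10.8 CPM, 3.70-fold lower (log2 -1.89 ± 0.14, adjusted p = 5.81e-11). ITGB1 was 1.32-fold lower (-0.40 ± 0.05, adjusted p = 5.44e-07). ITGAV was lower by a log2 of -0.18 ± 0.07 (adjusted p = 0.0258), a call lost with upper-quartile scaling (0.0785), without EWS-FLI1 replicate 1 (-0.09, adjusted p = 0.263) or without 24 h replicate 1 (0.0644).

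ITGAX rose at 24 h. It had 194, 162 and 188 counts, beside 29, 22 and 46 in untreated cells, and was 5.66-fold higher in CPM (log2 2.50 ± 0.24, adjusted p = 6.72e-09; log2 1.87 with length offsets). Its full-length coding transcript ITGAX-201 stood at 1.97 ± 0.243 TPM at 24 h, beside 0.262 ± 0.188 in untreated cells, and at 2.61 ± 0.771 TPM in EWS(YS37)-FLI1 cells, beside 0.555 ± 0.215 in mCherry cells. The share of the gene's TPM on that transcript was 64.2 ± 2.60% at 24 h, 50.1 ± 6.61% in EWS(YS37)-FLI1 cells, and 22.3 to 36.0% on average in the other groups. ITGA2 was still 1.48-fold above untreated cells at 24 h (log2 0.57 ± 0.11, adjusted p = 0.000199). ITGAM, at 13, 12 and 21 counts, lay above the untreated libraries without passing the test (log2 1.35 ± 0.66, adjusted p = 0.098), and passed it without EWS-FLI1 replicate 2 (0.0437).

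From 6 h to 24 h 7 members fell and 1 rose, where 62.9% of all genes were called, 32.6% higher and 30.3% lower. Without overlap were 8 members and 66.3% of all genes. ITGA2 fell by 2.04 on the log2 scale (4.10-fold lower, adjusted p = 1.59e-13), ITGB1 by 1.02 and ITGAV by 0.77, each with no overlap between libraries. ITGA11 was 8.05-fold lower (log2 -3.01 ± 0.21), ITGB3 1.98-fold lower (-0.98 ± 0.14) and ITGA5 1.53-fold lower (-0.61 ± 0.07). ITGAX rose 3.88-fold (1.95 ± 0.23, adjusted p = 1.09e-07). ITGA1 fell by 1.26 on the log2 scale (adjusted p = 0.00626), but its value was 0.06 with length offsets (adjusted p = 0.933).

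**Figure D3:**
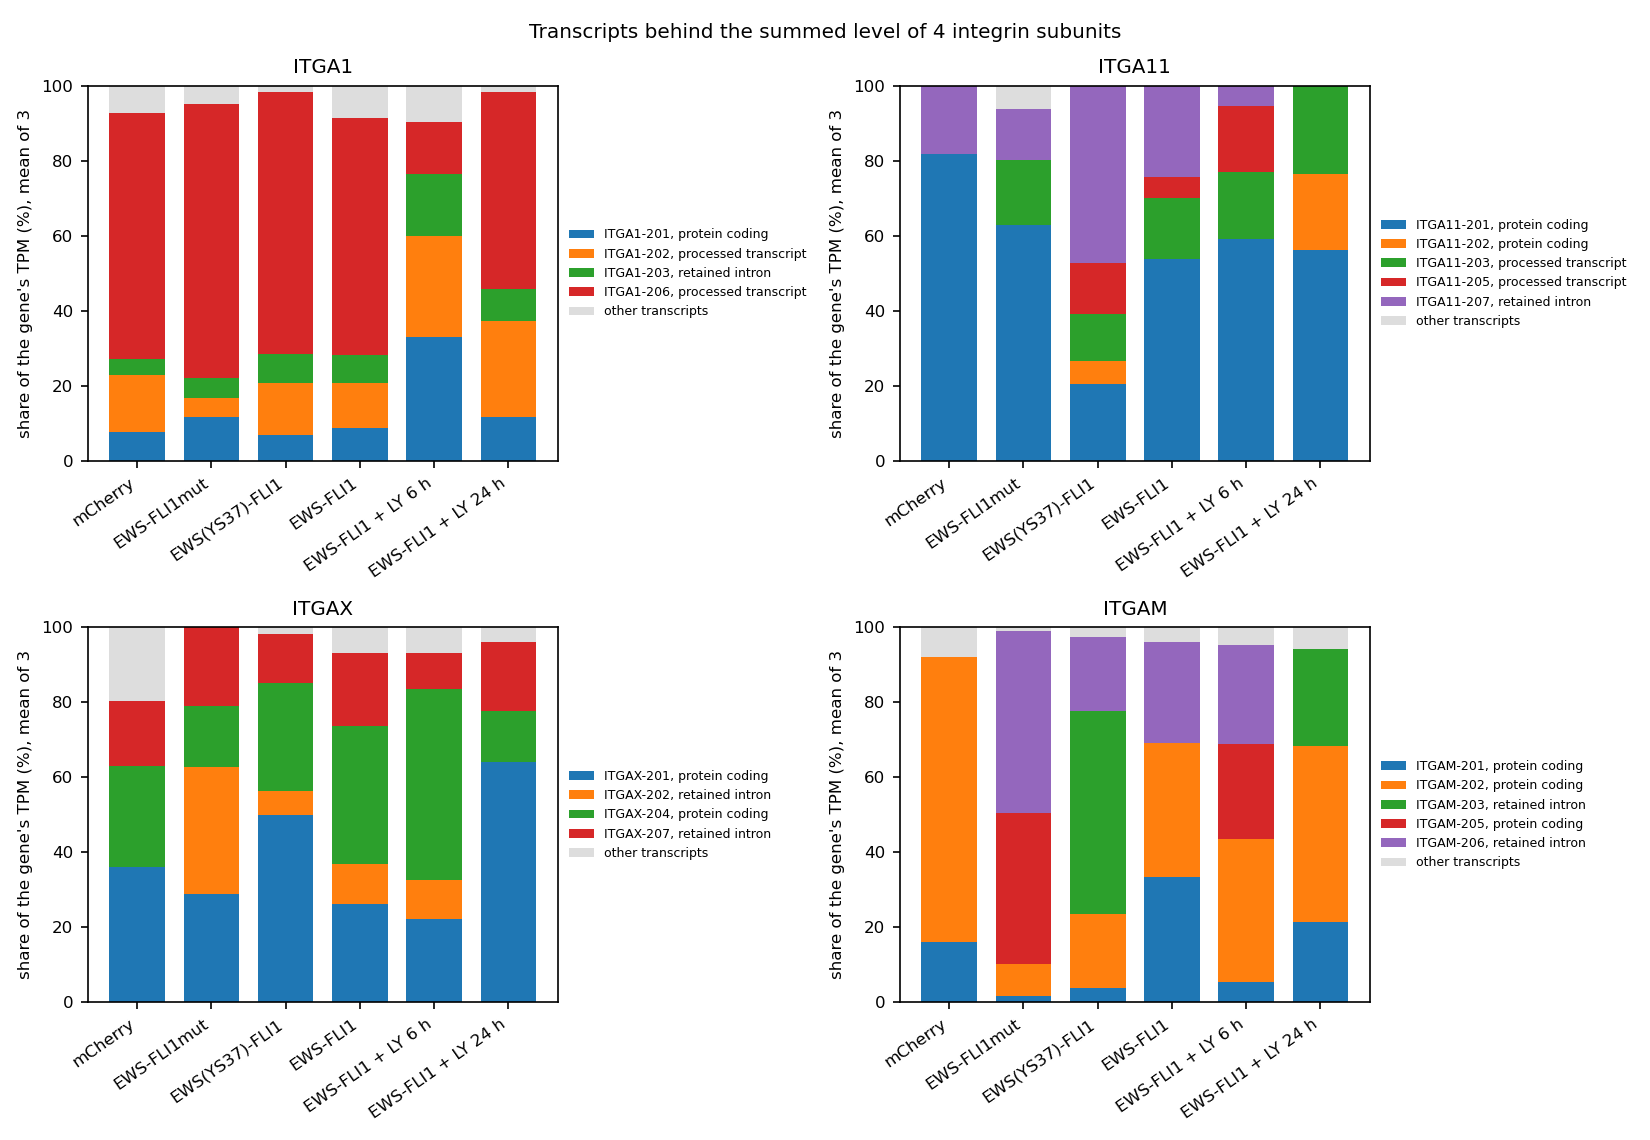
Mean share of a gene's TPM held by each annotated transcript (stacked, vertical axis in %, mean of 3 libraries) in the 6 groups for ITGA1, ITGA11, ITGAX and ITGAM, with transcripts not named in grey. ITGA1-206 dropped from 63.2% before treatment to 14% at 6 h, and ITGAX-201 held most of the TPM at 24 h (64.2%).

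**Figure D4:**
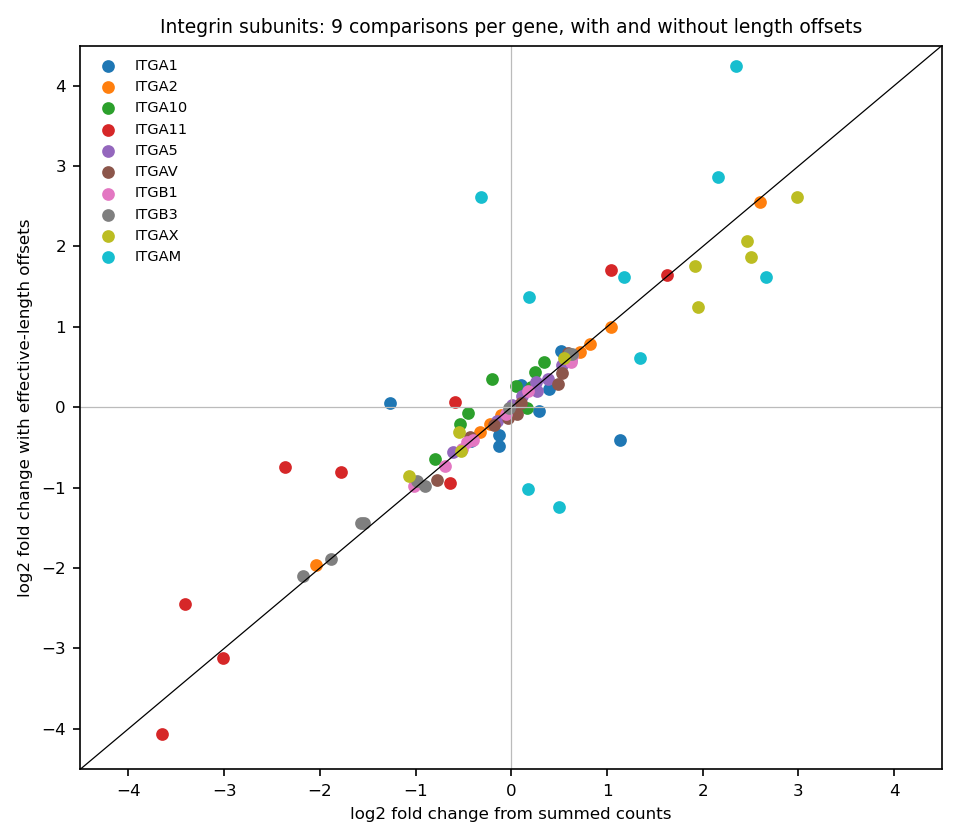
Log2 fold change of each integrin subunit from summed counts (horizontal axis) against the value with offsets for effective transcript length (vertical axis), 9 comparisons per gene, with the line of equality. ITGA2, ITGB1, ITGB3, ITGA5 and ITGAV lie along the line, while points of ITGA1, ITGAM and ITGA11 lie off it (-2.36 against -0.75 and -1.78 against -0.81 for ITGA11 in EWS(YS37)-FLI1 cells), and ITGAX at 24 h less so (2.50 against 1.87).

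The deposited quantification could also split reads between like sequences. Of the 31-base stretches in the main ITGB3 transcript 56.4% also occur in another gene, all in the readthrough AC068234.1, which had 0 counts in all 18 libraries. For ITGB1 the share was 16.5%, mainly with the pseudogene AC022149.1, which had 348 to 1331 counts per library against 21769 to 51818 for ITGB1. ITGAX shared 6.85% of its stretches, mainly with its neighbours ITGAD and ITGAM, and ITGAD had 1 to 34 counts per library. ITGA1 overlaps the coding gene PELO on the same strand and shared 4.49%. PELO had 391 to 699 counts per library against 12 to 87 for ITGA1. Antisense genes overlap ITGA1, ITGA2, ITGA5, ITGA10, ITGAV and ITGB3, and genes of other types lie on the opposite strand within ITGB1 and ITGAX. ITGAV shared 2.61% of its stretches, mainly with the antisense gene AC017101.1. The strand setting of the counting is not given in the sources used here.

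Across the 18 libraries ITGA11 and ITGB3 had a Pearson r of 0.91 on log2 CPM, ITGAV and ITGB1 0.90, and ITGA2 and ITGAV 0.87. ITGAX ran opposite to ITGB3 (-0.90) and to ITGA11 (-0.89). These values describe 6 groups whose libraries share their treatment, and they carry no test. By the same measure the protein-coding genes most like each member, among 13772 with a mean of at least 1 CPM, were FBXW11 and OTUD3 for ITGA2 (0.97 for both), ARHGDIA and HK1 for ITGA5 (0.97), ARAP2 and EFR3A for ITGAV (0.98), BOD1L1 (0.97) and GNAI3 (0.96) for ITGB1, USP11 and MN1 for ITGB3 (0.94), KRT14 (0.94) and KIAA1210 (0.93) for ITGA11, and GAB2 and DAGLB for ITGAX (0.93). For the low members the closest genes were less alike: ATP5MF (0.83) and AURKAIP1 (0.80) for ITGA1, PRKAA2 (0.78) and SPATA24 (0.77) for ITGA10, and UVRAG and NHP2 for ITGAM (0.83).

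The ratio of beta to alpha subunit TPM also differed between groups. ITGAV and ITGA6, counted below as partners of ITGB1, also pair with beta subunits that this ratio leaves out. ITGB1 stood at 2.38, 2.62 and 2.64 times the summed TPM of its 12 alpha partners in mCherry cells and at 2.44, 2.49 and 2.40 times in EWS-FLI1 cells. It was 1.66, 1.78 and 1.75 times in EWS-FLI1mut cells, 1.48, 1.66 and 1.46 times in EWS(YS37)-FLI1 cells, 1.65, 1.59 and 1.90 times at 6 h of LY2835219, and 1.12, 1.27 and 1.36 times at 24 h. The mCherry and EWS-FLI1 libraries lay above all others. ITGA3, which is not among the 10 members, was the largest part of the alpha sum. It averaged 144 of 281 TPM in mCherry cells, 179 of 337 in EWS-FLI1 cells, 364 of 576 at 6 h and 328 of 474 at 24 h. ITGB1 itself averaged 823 TPM in untreated EWS-FLI1 cells, 984 at 6 h and 591 at 24 h. Within the 4 collagen-binding alpha subunits ITGA2 held 52.6 ± 6.25% of the TPM in mCherry cells, 50.4 ± 1.07% in EWS-FLI1 cells, 67.6 ± 4.65% in EWS-FLI1mut cells, 66.4 ± 7.83% in EWS(YS37)-FLI1 cells, 91.0 ± 1.47% at 6 h and 86.4 ± 2.10% at 24 h.

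**Figure D5:**
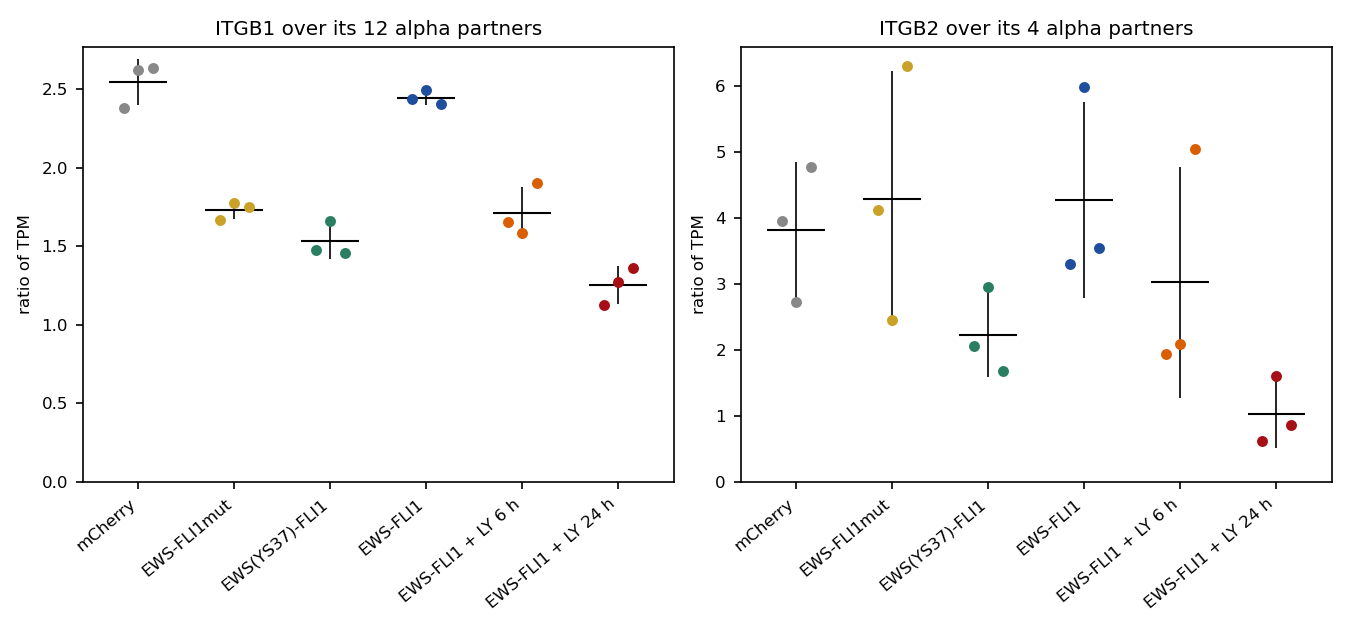
Ratio of the TPM of a beta subunit to the summed TPM of its alpha partners (vertical axis, linear from 0) in each library (points) with the group mean (line) and SD (bar): ITGB1 over 12 alpha subunits at left, ITGB2 over 4 at right. The ITGB1 ratio was highest in mCherry (2.55) and EWS-FLI1 cells (2.45) and lowest at 24 h (1.25).

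Integrins reach the cell surface only as pairs, so ITGB2, the partner of ITGAX and ITGAM, was read beside them. ITGB2 stood at 13.7, 12.2 and 16.9 CPM in mCherry cells, at 19.3, 22.1 and 22.6 CPM in EWS(YS37)-FLI1 cells and at 4.78, 7.54 and 6.27 CPM at 24 h. It was higher in EWS(YS37)-FLI1 than in mCherry cells (log2 0.58 ± 0.16, adjusted p = 0.011), a call lost without mCherry replicate 2 (0.0696) and with length offsets (0.136). Against EWS-FLI1 cells ITGB2 was 2.22-fold higher in EWS(YS37)-FLI1 cells (log2 1.15 ± 0.17, adjusted p = 9.45e-06). EWS-FLI1 cells were also below EWS-FLI1mut cells (-0.83 ± 0.17, adjusted p = 0.00104). Between EWS(YS37)-FLI1 and EWS-FLI1mut cells ITGB2 was not called (0.32 ± 0.16, adjusted p = 0.148). At 24 h, where ITGAX rose, ITGB2 was lower than in untreated EWS-FLI1 cells (log2 -0.64 ± 0.18, adjusted p = 0.00476).

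Myeloid markers were read for the same reason. Their summed level over 13 genes was 13.9 to 17.8 CPM in EWS-FLI1 cells, 22.2 to 26.2 CPM in mCherry cells, 28.4 to 33.3 CPM in EWS(YS37)-FLI1 cells and 29.8 to 30.5 CPM at 24 h. It was 21.8 to 23.7 CPM at 6 h and 22.7 to 26.6 CPM in EWS-FLI1mut cells. ITGB2 and the lysosomal protein CD68 are among the 13 and made up most of the sum. The other 11 summed to 3.26 to 5.12 CPM in mCherry and 3.90 to 4.55 CPM in EWS(YS37)-FLI1 cells, which overlap, and to 2.66 to 4.83 CPM in untreated EWS-FLI1 cells and 4.93 to 5.94 CPM at 24 h. CD68 rose 24 h after LY2835219 from 2.22 to 18.4 CPM (log2 3.06 ± 0.22, adjusted p = 5.11e-11). At 24 h 2 of the 7 tested markers rose and 1 fell, where 48% of all genes were called, 23.3% higher and 24.6% lower. The signalling adaptor TYROBP and the granule enzyme MPO had 0 counts in the EWS(YS37)-FLI1 and 24 h libraries, and CD14 averaged 0.11 CPM at 24 h and 0.14 CPM in EWS(YS37)-FLI1 cells. The part of these markers in the ITGAX result was not tested.

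Of the 16 other integrin subunits, 13 were tested. Against mCherry cells 4 rose and 1 fell with EWS-FLI1, 3 rose with EWS-FLI1mut, and 2 rose and 2 fell with EWS(YS37)-FLI1, where 21.1, 7.15 and 21.7% of all genes were called. ITGA3, a laminin receptor subunit that pairs with ITGB1, rose with EWS-FLI1 (log2 0.32 ± 0.07) and with EWS(YS37)-FLI1 (0.31 ± 0.07). ITGB8, a partner of ITGAV, rose with EWS-FLI1 (0.31 ± 0.07) and EWS-FLI1mut (0.35 ± 0.07) and fell with EWS(YS37)-FLI1 (-0.72 ± 0.08). ITGB4, which pairs with ITGA6, rose with EWS-FLI1 (0.43 ± 0.10) and EWS-FLI1mut (0.71 ± 0.10), calls lost with length offsets (adjusted p = 0.0994 and 0.137). The remaining calls were small or rested on single libraries: ITGB2 with EWS-FLI1 (-0.57 ± 0.17, adjusted p = 0.133 without mCherry replicate 3), ITGB5 with EWS-FLI1 (0.20 ± 0.07, adjusted p = 0.19 without mCherry replicate 1), ITGA3 with EWS-FLI1mut (0.24 ± 0.07, adjusted p = 0.183 without mCherry replicate 2) and ITGB4 with EWS(YS37)-FLI1 (-0.34 ± 0.10, adjusted p = 0.0744 without EWS(YS37)-FLI1 replicate 2).

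Under LY2835219 3 of the 13 rose and 6 fell at 6 h, and 2 rose and 6 fell at 24 h, where 64.9% and 48% of all genes were called. ITGA3 went from 607, 574 and 616 CPM to 1374, 1359 and 1183 CPM at 6 h (log2 1.12 ± 0.07, adjusted p = 1.92e-12) and stood at 1093 ± 90.8 CPM at 24 h. ITGA6 rose as well (0.68 ± 0.08 at 6 h). Beta subunits that pair with ITGAV moved in both directions at 6 h. ITGB1 rose and ITGB3 fell then, as given above. ITGB8 fell from 71.2 to 15.1 CPM at 6 h (log2 -2.23 ± 0.08, adjusted p = 2.41e-16), and ITGB5 fell less (-0.37 ± 0.07). At 24 h ITGB1, ITGB3, ITGB5 and ITGB8 were all called lower than in untreated cells. ITGB5 went from 406 to 131 CPM (-1.64 ± 0.07, adjusted p = 2.03e-14), and ITGB8 differed by -1.45 ± 0.08. ITGB4 fell at 6 h (-0.85 ± 0.10) and 24 h (-0.56 ± 0.10) and ITGA7 at 24 h (-0.60 ± 0.09). The 6 h calls of ITGA7 (-0.20 ± 0.08, adjusted p = 0.153 without 6 h replicate 3) and ITGA9 (-0.54 ± 0.23, adjusted p = 0.13 without 6 h replicate 1) were lost without single libraries. ITGAE rose at 6 h in counts (0.48 ± 0.12), but its TPM libraries overlapped, at 39.0 ± 4.56 in untreated cells and 40.8 ± 0.271 at 6 h. Its partner ITGB7 did not pass the filter on low counts.

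Direct comparison of the constructs named further subunits. ITGA4 was higher in EWS(YS37)-FLI1 than in EWS-FLI1 (log2 0.68 ± 0.16) and EWS-FLI1mut cells (0.72 ± 0.16), and ITGB8 was lower (-1.03 ± 0.08 and -1.07 ± 0.08). The TPM libraries of ITGA4 overlapped in both comparisons. They averaged 4.28 ± 1.49 in EWS(YS37)-FLI1, 2.45 ± 0.797 in EWS-FLI1 and 2.95 ± 0.563 in EWS-FLI1mut cells. ITGA8, at 0.645 CPM in EWS(YS37)-FLI1 and 1.75 CPM in EWS-FLI1mut cells, differed by -1.43 ± 0.50, with overlapping TPM libraries. ITGAD was higher at 24 h than at 6 h of treatment (1.95 ± 0.68, at 1.06 and 0.268 CPM). Its counts were low, at 12, 14 and 34 beside 8, 4 and 1.

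The counts of called genes in the lists below stand beside 21.1% of all genes called with EWS-FLI1 (11.1% higher, 9.95% lower). With EWS(YS37)-FLI1 the share was 21.7% (11.5% higher, 10.2% lower). It was 64.9% at 6 h (31.6% higher, 33.3% lower) and 48% at 24 h (23.3% higher, 24.6% lower), so that counts under treatment are to be read against a high background. Of 12 fibrillar, basement membrane and type VI collagen genes, 8 rose and 1 fell with EWS-FLI1, and 0 rose and 4 fell with EWS(YS37)-FLI1. At 6 h 6 rose and 0 fell, and at 24 h 4 rose and 4 fell. The share called at 6 h in either direction was smaller than that of all genes, while the share that rose was larger. The medians of the 12 genes were 0.49, -0.14, 0.25 and -0.26 on the log2 scale. COL1A1, a chain of the ITGA2 and ITGA11 ligand type I collagen, rose with EWS-FLI1 (0.67 ± 0.09) and fell with EWS(YS37)-FLI1 (-0.74 ± 0.09). COL3A1 fell from 128 to 13.4 CPM with EWS(YS37)-FLI1 (-3.26 ± 0.12) and, at 24 h, from 167 to 79.5 CPM (-1.07 ± 0.10). COL6A3 rose at 6 h from 504 to 1395 CPM (1.47 ± 0.11).

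Of the 18 RGD and fibronectin-type ligands 16 were tested. With EWS-FLI1 9 rose and 1 fell, and with EWS(YS37)-FLI1 4 rose and 5 fell. At 6 h 4 rose and 5 fell, in each direction a smaller share than of all genes, and at 24 h 5 rose and 8 fell. Fibronectin itself, FN1, rose with EWS-FLI1 from 905 to 1546 CPM (0.77 ± 0.16). CTGF, a matricellular ligand of ITGAV integrins, rose with EWS-FLI1 (1.03 ± 0.06) and fell at 24 h from 446 to 70.8 CPM (-2.66 ± 0.07). CYR61, of the same family, rose with EWS(YS37)-FLI1 (1.42 ± 0.06) and fell at 24 h (-1.25 ± 0.06), and TNC rose at 6 h (1.04 ± 0.07). The osteopontin gene SPP1 fell with EWS-FLI1 (-1.30 ± 0.22) and rose at 24 h (2.04 ± 0.22).

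Inside the cell, 32 genes of the adhesion complex that links integrins to actin were tested. With EWS-FLI1 19 rose and 2 fell, with EWS(YS37)-FLI1 14 rose and 4 fell, at 6 h 16 rose and 9 fell, and at 24 h 7 rose and 17 fell, and the medians were 0.29, 0.17, 0.21 and -0.20. ZYX (zyxin) rose with EWS-FLI1 (0.73 ± 0.08) and at 6 h from 141 to 370 CPM (1.39 ± 0.07). The tensins TNS2 (-2.11 ± 0.10) and TNS3 (-1.55 ± 0.08) fell at 6 h. PARVA, an actin-binding partner of ILK, rose with EWS(YS37)-FLI1 (1.08 ± 0.06). The scaffold NEDD9 fell with EWS(YS37)-FLI1 (-0.83 ± 0.06) and at 24 h (-1.59 ± 0.06).

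Among 11 tetraspanins and membrane partners, 4 rose and 2 fell with EWS-FLI1, 7 rose and 1 fell with EWS(YS37)-FLI1, 7 rose and 2 fell at 6 h, and 5 rose and 3 fell at 24 h. SLC3A2, which binds beta subunits, rose at 6 h from 213 to 740 CPM (1.80 ± 0.06), and the syndecan SDC4 rose at 6 h (1.72 ± 0.07) and with EWS(YS37)-FLI1 (1.21 ± 0.07). CAV1 fell with EWS-FLI1 (-1.06 ± 0.08).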

How the data were processed

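RNA was measured in 18 libraries of U2OS cells. The submitters' processing notes name CASAVA, kallisto 0.46 and hg38, and the deposited tables have kallisto's columns; the transcript index and strand setting are not given in the sources used here. The deposited estimated counts per transcript were summed per gene by Ensembl transcript identifier (GENCODE 29) and rounded to whole numbers, and the authors' TPM values were summed likewise. The deposited effective lengths were averaged per gene, weighted by TPM, for 1 alternative. Of 188753 transcripts 169797 matched, and 2.59 to 2.74% of counts lay on the rest. Genes passing filterByExpr (16786) were fitted with edgeR 4.0.16 (R 4.3.3) by quasi-likelihood over all 18 libraries, with 1 mean per group, TMM factors, 12 residual degrees of freedom and Benjamini-Hochberg adjustment over all genes, and called at an adjusted p under 0.05. The standard error is the log2 fold change divided by the square root of F. The fit was tested on simulated data. DESeq2 1.42.0, limma 3.58.1 and other alternatives were tried. Depth is in the report; low members are limited by counting error.

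The members and lists were chosen with earlier results of these data known, so no list was tested as a whole. Text names all members; other integrin subunits if called and at 1 CPM or more in the higher group; of each other list at most 4 called genes at 5 CPM or more; and the 2 most correlated genes (prior count 2). CPM uses TMM-scaled totals.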

Additional observations from a re-analysis of the deposited data

Results flagged for a closer look

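For 4 members the log2 fold change against mCherry cells had opposite signs in EWS-FLI1 and EWS(YS37)-FLI1 cells, both called, and the direct comparison of the 2 lines, EWS(YS37)-FLI1 less EWS-FLI1, was called. It was -3.40 for ITGA11, 2.99 for ITGAX, -0.69 for ITGB1 and -2.18 for ITGB3. ITGB1 also rose with EWS-FLI1 and fell with EWS-FLI1mut, and EWS-FLI1 less EWS-FLI1mut was 0.63. The ITGB1 rise with EWS-FLI1 was lost without 1 of 2 single libraries, as given beside it. The fall of ITGA11 with EWS(YS37)-FLI1 was not called with length offsets (adjusted p = 0.375), nor that of ITGAX with EWS-FLI1 on log2(TPM + 1) with limma (adjusted p = 0.0762).

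Under LY2835219 ITGAV and ITGB1 rose at 6 h and fell at 24 h. The direct comparison of 24 h with 6 h was -0.77 for ITGAV and -1.02 for ITGB1. Both comparisons with untreated cells share the untreated libraries, and the ITGAV fall at 24 h was lost without EWS-FLI1 replicate 1.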

How the results depend on the processing

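Of 807 values of the members under 9 other settings, 770 kept their side of the threshold (30 of these, called in neither setting and spread over 7 members, changed sign), 26 lost the call, 5 gained it and 6 called values changed sign; with 1 library left out, 519 of 540 kept their side (24 uncalled values changed sign), 15 lost the call and 6 gained it. The 6 were all in ITGA1: at 6 h -0.41 (length offsets), -0.33 and -0.57 (limma on TPM with pseudocounts of 1 and 0.1), and from 6 h to 24 h 0.056, 0.16 and 0.30. The number of members called moved to 3 of 10 for EWS(YS37)-FLI1 against EWS-FLI1mut with length offsets and to 3 for EWS-FLI1 against EWS-FLI1mut with limma on log2(TPM + 0.1). With 1 library left out, the number of members called ranged over 5 to 6 for EWS-FLI1, 2 to 3 for EWS-FLI1mut and 6 to 7 for EWS(YS37)-FLI1 against mCherry, 4 to 6, 6 to 7 and 5 to 6 for the direct comparisons in the order given, 6 to 8 at 6 h, 5 to 7 at 24 h and 8 between times. Same-numbered libraries did not deviate together (correlations of -0.04 to 0.06). The labels do not say whether they were handled together, and these values cannot tell. A replicate block gave 6, 2, 7, 5, 7, 6, 7, 6 and 8 called members, as without it.

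The leukocyte integrin ligand C3, not described above, was called higher with EWS-FLI1. Of its list 6 genes were tested, and 2 rose and 0 fell, where 21.1% of all genes were called. C3 reversed there (-0.29, -0.22 and -0.28 with length offsets and both TPM settings). Among other named genes ITGA7 reversed for EWS(YS37)-FLI1 against EWS-FLI1 (0.014, length offsets) and from 6 h to 24 h (0.21, 0.41 and 0.44). Between times ITGA3 (0.0015, no scaling) and ITGB2 (0.036 and 0.038, TPM) reversed as well. The cause was not tested. Length offsets and the TPM settings called 1700, 1679 and 1544 of all genes for EWS-FLI1 (3536 in the report's fit), 358, 384 and 345 for EWS-FLI1mut (1200; 667 to 1012 with 1 library left out, the highest without mCherry replicate 1) and 1960, 1907 and 1849 for EWS(YS37)-FLI1 against mCherry (3645), 1260, 1276 and 1122 (2734), 3001, 2990 and 2901 (5223) and 2568, 2735 and 2584 (4565) for the direct comparisons. With no scaling, the share of calls that were higher moved from 49.3 to 64.1% (EWS-FLI1mut) and 53.1 to 42.8% (EWS(YS37)-FLI1 against mCherry), 53.9 to 39.3% (EWS-FLI1 against EWS-FLI1mut), 53.3 to 37.8% (EWS(YS37)-FLI1 against EWS-FLI1mut), 48.7 to 32.2% (6 h) and 51.8 to 70.4% (between times). Depth limits ITGAM, ITGA10 and ITGA1 most.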
